A study of Homo sapiens with 8 samples.

Results

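The 10 genes described here help make or transfer the lipoyl group of mitochondrial dehydrogenases, or encode subunits of the complexes that carry it. These are FDX1, LIAS, LIPT1, LIPT2, DLD, DLAT, PDHA1, PDHB, DBT and DLST, of 20263 genes in the expression table. They were chosen by name, for their role, and all 10 were in the table. RNA was sequenced from PANC-1, an established human pancreatic duct carcinoma line, after 24 h with 10 μM eupalinolide B (EB), a sesquiterpene lactone of the plant Eupatorium lindleyanum, or with the solvent DMSO. Each group held 4 libraries of this 1 line, described in the methods as biological replicates, and the labels name no copper compound for any of them. The study asked how EB acts on pancreatic cancer cells, tested several modes of cell death and then focused on copper. By western blot of PANC-1 and MiaPaCa-2 cells over a range of EB concentrations, it reported lower LIAS protein and no significant effect on FDX1 protein. Knockdown of FDX1 was reported to reverse the cell death from EB, in part according to the study's discussion. The values here are of RNA. Levels are given in TPM, a gene's share of all transcripts in its library once transcript length is allowed for, which the authors deposited in place of read counts, so the depth behind each value is unknown here. A line that expresses less of a gene in every cell and a line in which fewer cells express it cannot be told apart in bulk RNA.

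Lipoic acid is a short sulfur-containing fatty acid that is fixed to a lysine of a few mitochondrial enzymes and swings substrates between their active sites. LIPT2 places an octanoyl chain made by mitochondrial fatty acid synthesis on the H protein of glycine cleavage, LIAS inserts sulfur into it with iron-sulfur clusters and with electrons that FDX1 supplies, and LIPT1 moves the lipoyl group on to the 2-oxoacid dehydrogenases. Each of these complexes has an E1 subunit that decarboxylates the substrate, a lipoylated E2 core and an E3, DLD, that reoxidises the lipoyl group. The pathway is known in copper biology because copper binds lipoylated E2 proteins, DLAT above all, and because cells that lack FDX1 or LIAS resist copper ionophores.

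DLAT, DLST and DBT are the members that carry the lipoyl group, and the bases around the codon of the lipoyl lysine are shown because this residue sets them apart from the genes that make the group or act beside it. The runs below are the coding strand of the canonical transcripts of GENCODE release 44 on hg38, 39 bases each, with the lysine codon in capitals.
DLAT, first lipoyl domain: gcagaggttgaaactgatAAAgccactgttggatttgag
DLAT, second lipoyl domain: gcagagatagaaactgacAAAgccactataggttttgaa
DLST: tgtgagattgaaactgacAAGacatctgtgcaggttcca
DBT: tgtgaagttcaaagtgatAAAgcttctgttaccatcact
PDHX: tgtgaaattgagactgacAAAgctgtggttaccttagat
GCSH: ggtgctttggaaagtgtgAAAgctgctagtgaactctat

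DLAT thus carries 2 such lysines, at residues 132 and 259 of 647, encoded in exons 3 and 5 of 14, at chr11:112028527-112028529 and chr11:112033518-112033520 on the plus strand. The lysine of DLST is residue 110 of 453, in exon 6 of 15 at chr14:74889950-74889952 on the plus strand, and that of DBT is residue 105 of 482, in exon 4 of 11 at chr1:100230851-100230853 on the minus strand. PDHX, the E3-binding protein of pyruvate dehydrogenase, and GCSH, the H protein, are carriers outside the 10 genes. These lysines were located by a search of the translated sequences for a short motif, not taken from annotated lipoylation sites. The motif allowed only aspartate or valine before the lysine. That residue is aspartate in all of these but GCSH, which has valine. The pair of DLAT windows shared 32 of 39 bases, DBT and PDHX shared 27, and the other pairs shared between 17 and 23.

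In the DMSO libraries the 10 genes spanned 55.1-fold in mean TPM, a scale that already allows for transcript length. The order from the highest was PDHA1, DLST, DLD, PDHB, DLAT, LIAS, FDX1, LIPT2, LIPT1 and DBT. DMSO values overlapped between the neighbours DLST and DLD, DLD and PDHB, LIAS and FDX1, FDX1 and LIPT2, and LIPT2 and LIPT1, and not between the other neighbours. The 4 genes that make and transfer the lipoyl group all had lower mean levels than PDHA1, PDHB, DLAT, DLD and DLST, and only DBT lay below them.

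With EB, 3 of the 10 genes were lower at an adjusted p under 0.05, namely DLD, DLAT and LIPT1, and 0 were higher. The test was limma on log2(TPM + 1) with Benjamini-Hochberg adjustment over the 11725 genes tested, and all 10 genes were above the expression minimum. Among all genes tested, 25.1% (2944) were lower and 15.2% (1785) were higher by the same rule. At an unadjusted p under 0.05 in limma, 7 of the 10 differed, FDX1 and LIAS with higher values in EB and the other 5 with lower values. By that rule 19.4% of all genes tested were higher and 30.5% lower. The median log2 fold change of the 10 was −0.44, against −0.11 over all genes tested. None of the 10 passed the study's own thresholds, an unadjusted p under 0.05 with an absolute log2 fold change above 1.5. In the fit used here 2.08% of genes tested passed them, a share that is not the study's own count. Values of EB and DMSO did not overlap for 3 of the 10 genes on the lower side and for 1, LIAS, on the higher side, against 20.3% and 16.6% of all genes tested.

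**Figure D1:**
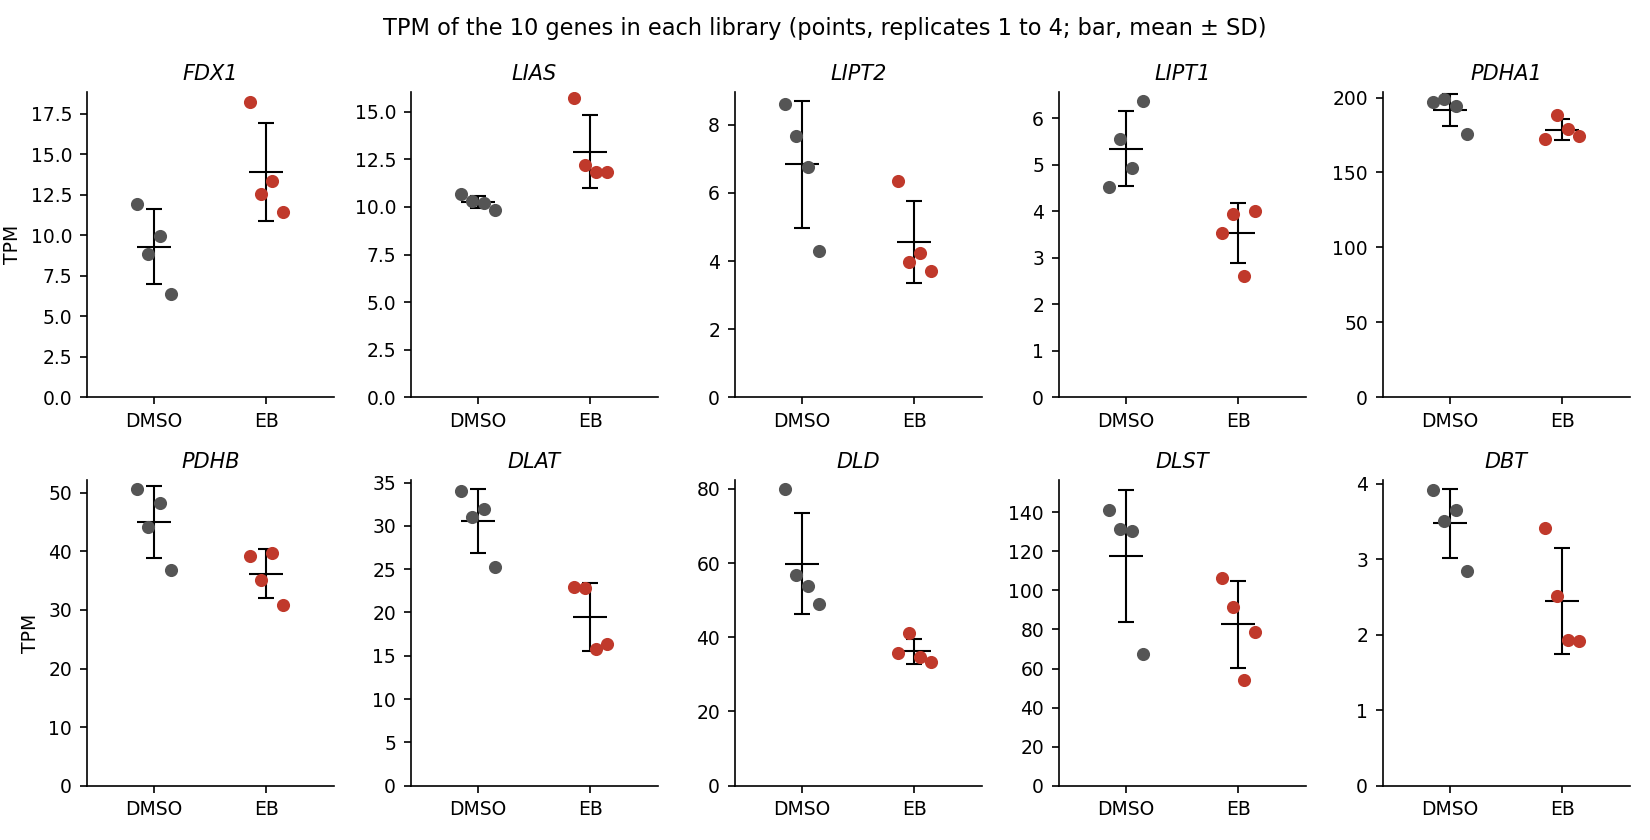
TPM of the 10 genes in each library, from 0 on every y axis, with DMSO in grey and EB in red. Points are replicates 1 to 4 and the bar is the mean ± SD (n = 4 per group). LIPT1, DLAT and DLD were lower in every EB library than in any DMSO library, LIAS was higher in every EB library, and the groups overlapped in the other 6 genes.

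TPM are shares of a library, and the counts above moved with the scaling. The 13 protein-coding genes of the mitochondrial genome took 17.01%, 21.1%, 21.0% and 39.0% of the DMSO libraries and 11.6%, 14.7%, 12.2% and 20.3% of the EB libraries, with DMSO replicate 4 far above the rest. The share was 14.7% ± 3.96 in EB and 24.5% ± 9.83 in DMSO (SD, n = 4 each), a log2 difference of −0.70 with an exact two-sided permutation p of 0.0571. Median-ratio scaling moved the median change of all genes from −0.11 to 0.01, and under it 3146 genes were higher and 3001 lower in place of 1785 and 2944. Quantile normalization gave 2782 higher and 2764 lower, nuclear genes alone, rescaled to the same total in each library, gave 1440 and 4840, and a correction that took the dependence on transcript length and GC content out of each library gave 2850 and 2548. The part of the mitochondrially encoded share in the results below was not tested beyond these scalings. Without DMSO replicate 4, 7 of the 10 genes were called lower, with LIPT2, PDHB, DLST and DBT beside the 3 named above, and 37.0% of all genes tested (4333) were called lower.

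FDX1, the mitochondrial ferredoxin that hands electrons to LIAS, measured 11.9, 8.83, 9.96 and 6.38 TPM in DMSO replicates 1 to 4 and 18.2, 12.5, 13.3 and 11.4 TPM in EB replicates 1 to 4. The highest DMSO value lay within the EB range, so the groups overlapped by 1 library. The mean was 13.9 ± 3.002 TPM in EB and 9.28 ± 2.32 in DMSO (SD, n = 4), a log2 fold change of 0.54 (SE 0.20, 95% interval 0.10 to 0.99) with a limma adjusted p of 0.0512. That is just outside the threshold, and 6 of 17 other ways of processing put it inside, among them median-ratio scaling at 0.67 (adjusted p = 0.0042) and quantile normalization at 0.78 (adjusted p = 0.0020), while none turned its sign. Of the libraries left out in turn, only the absence of DMSO replicate 1 brought the call (0.66, adjusted p = 0.0322). FDX1 (ENSG00000137714) lies at chr11:110429948-110464884 on the plus strand.

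LIAS, lipoyl synthase itself, is the gene with the tightest control values. It measured 10.7, 10.3, 10.2 and 9.86 TPM in DMSO and 15.8, 12.2, 11.8 and 11.8 TPM in EB. All 4 EB libraries were above all 4 DMSO libraries, and EB replicate 1 stood apart from the other EB libraries. The mean was 12.9 ± 1.90 TPM against 10.3 ± 0.337 (SD, n = 4), a log2 fold change of 0.30 (SE 0.13, 95% interval 0.01 to 0.58). The limma adjusted p was 0.0864. The exact two-sided permutation p, not adjusted, was 0.0286, the smallest that 4 against 4 libraries allow. Every gene whose groups do not overlap has this value, so it adds nothing to the lack of overlap. LIAS was called higher in 4 of 17 alternatives, among them removal of the length and GC trend (0.50, adjusted p = 0.0055). It was called in 0 of the 8 with a library left out, and with nuclear genes alone it was at 0.13 (adjusted p = 0.394). Its position is chr4:39459004-39485109 on the plus strand (ENSG00000121897).

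LIPT2, the octanoyl transferase that starts the pathway, measured 8.62, 7.68, 6.75 and 4.29 TPM in DMSO and 6.35, 3.98, 4.23 and 3.70 TPM in EB. DMSO replicate 4 and EB replicate 1 each fell in the range of the other group. The log2 fold change was −0.48 (SE 0.21, 95% interval −0.95 to −0.01, limma adjusted p = 0.0936), and 5 of 17 alternatives called it lower, among them those without DMSO replicate 4 (−0.66, adjusted p = 0.0110) and without EB replicate 1 (−0.62, adjusted p = 0.0481). LIPT2 (ENSG00000175536) lies at chr11:74490519-74493724 on the minus strand, and 359 bases of its canonical transcript, 15.4%, overlap the antisense gene LIPT2-AS1.

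LIPT1, the transferase that passes the lipoyl group to the E2 proteins, fell with EB. It measured 4.53, 5.56, 4.92 and 6.38 TPM in DMSO and 3.53, 3.95, 2.61 and 4.01 TPM in EB, so that the highest EB library was below the lowest DMSO library. The mean was 3.52 ± 0.646 against 5.35 ± 0.808 TPM (SD, n = 4), a log2 fold change of −0.49 (SE 0.15, limma adjusted p = 0.0266). The call was lost with median-ratio scaling (−0.39, adjusted p = 0.107), with quantile normalization (−0.18, adjusted p = 0.476) and without DMSO replicate 2 (adjusted p = 0.0691), EB replicate 1 (0.0578) or EB replicate 3 (0.0778). LIPT1 (ENSG00000144182, chr2:99154955-99163157, plus strand) shares 262 bases, 20.7% of its canonical transcript, with MITD1 on the other strand. It also shares 54 bases, 4.27%, with ENSG00000273155, a protein-coding gene on the same strand at 0.297 TPM in DMSO and 0.625 TPM in EB. MITD1 stood at 56.6 TPM in DMSO and 63.8 TPM in EB (log2 fold change 0.17, adjusted p = 0.279), far above LIPT1, and the strand setting of the counting is not given in the sources used here.

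Neither of the ratios chosen among these 4 genes for a test passed it. The ratio of LIAS to FDX1 within a library was 1.13 in DMSO and 0.937 in EB as geometric means (log2 difference −0.27, exact permutation p = 0.171). That of LIPT1 to LIPT2 was 0.801 and 0.779 (−0.04, exact permutation p = 0.943), and its range in DMSO alone, 0.525 to 1.49, was wider than its range in EB, 0.556 to 1.08. These are 2 of 10 ratios compared, and their adjusted p over the 10 were 0.343 and 0.943. The ratios across these pairs were looked at after the values were seen, as a description with no test, and none overlapped between the groups. For LIAS to LIPT1 this follows from the single genes, since LIAS was higher and LIPT1 lower without overlap. LIAS to LIPT1 was 1.55 to 2.36 in DMSO and 2.95 to 4.54 in EB, and LIAS to LIPT2 was 1.24 to 2.30 and 2.48 to 3.19. FDX1 to LIPT1 was 1.00079 to 2.64 and 2.85 to 5.17, and FDX1 to LIPT2 was 1.15 to 1.49 and 2.87 to 3.15.

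The pyruvate dehydrogenase complex feeds pyruvate into the citric acid cycle as acetyl-CoA. In the values as deposited, its E2 gene fell and its E1 genes did not pass the test. PDHA1, the E1 alpha subunit and the switch that kinases phosphorylate, measured 197.3, 198.9, 194.1 and 175.8 TPM in DMSO and 172.2, 188.5, 179.3 and 174.6 TPM in EB. It was the most abundant of the 10 in every library, and its groups overlapped. Its log2 fold change was −0.10 (SE 0.11, 95% interval −0.34 to 0.14, limma adjusted p = 0.493), and it became 0.03 with median-ratio scaling and 0.06 with the length and GC trend removed. It was called lower with quantile normalization (−0.29, adjusted p = 0.0221) and with nuclear genes alone (−0.28, adjusted p = 0.0362), and in no other of the 17 alternatives. PDHA1 (ENSG00000131828, chrX:19343893-19361718, plus strand) shares 956 bases, 28.5% of its canonical transcript, with MAP3K15 on the other strand, which was at 1.72 TPM in DMSO and 0.604 TPM in EB.

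PDHB, the E1 beta subunit, measured 50.7, 44.1, 48.3 and 36.8 TPM in DMSO and 39.2, 35.05, 39.7 and 30.8 TPM in EB. Only DMSO replicate 4 reached into the EB range. The log2 fold change was −0.30 (SE 0.14, 95% interval −0.62 to 0.02, limma adjusted p = 0.118). PDHB was called lower in 5 of 17 alternatives. Without DMSO replicate 4 it was at −0.39 (adjusted p = 0.0227) and with the replicate block at −0.30 (0.0456). Quantile normalization gave −0.29 (0.0314) and nuclear genes alone −0.49 (0.0020). With the length and GC trend removed, PDHB was at −0.50 (0.0026) and DLAT at −0.39 (0.0149). PDHB (ENSG00000168291) lies at chr3:58427630-58433857 on the minus strand, and 142 bases of its canonical transcript, 9.42%, overlap a noncoding gene on the other strand.

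DLAT, the lipoylated E2 core whose windows are shown above, measured 33.96, 31.0, 32.0 and 25.3 TPM in DMSO and 23.0, 22.8, 15.8 and 16.4 TPM in EB. No EB library reached the lowest DMSO library. The mean was 19.5 ± 3.94 against 30.6 ± 3.74 TPM (SD, n = 4), so that the mean fell by 36.2%, and the log2 fold change was −0.63 (SE 0.16, limma adjusted p = 0.0135). The call held in all 17 alternatives, with log2 fold changes from −0.82 to −0.39. DLAT (ENSG00000150768, chr11:112025408-112064404, plus strand) shares 1004 bases, 25.9% of its canonical transcript, with PIH1D2 on the other strand. PIH1D2 was low, at 1.65 TPM in DMSO and 2.73 TPM in EB, and it differed in the opposite direction (log2 fold change 0.49, adjusted p = 0.0160).

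The balance of E2 to E1 was lower in every EB library than in any DMSO library. The ratio of DLAT to PDHA1 was 0.144 to 0.172 in the DMSO libraries and 0.0882 to 0.133 in the EB libraries, and that of DLAT to PDHB was 0.662 to 0.704 and 0.398 to 0.652. Neither pair of ranges overlapped. The log2 differences were −0.56 and −0.35, each with an exact permutation p of 0.0286, the smallest possible, and an adjusted p of 0.143 over the 10 ratios. With the length and GC trend removed, DLAT to PDHA1 stayed at −0.45 but DLAT to PDHB turned to 0.11, so the second shift depended on that correction. DLAT to PDHX went from 0.449 to 0.354 (−0.35, exact permutation p = 0.0571, adjusted p = 0.190), and PDHA1 to PDHB from 4.28 to 4.96 (0.21, exact permutation p = 0.143, adjusted p = 0.343).

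DLD, the E3 flavoprotein that all of these complexes and glycine cleavage share, showed the most negative log2 fold change of the 10. It measured 79.9, 56.7, 53.8 and 49.1 TPM in DMSO and 35.8, 41.0, 34.6 and 33.3 TPM in EB. The EB libraries lay close together and below all DMSO libraries, of which replicate 1 was well above the others. The mean was 36.2 ± 3.40 against 59.8 ± 13.7 TPM (SD, n = 4), so that the mean fell by 39.6%, and the log2 fold change was −0.69 (SE 0.16, limma adjusted p = 0.00907). The call held in all 17 alternatives (−0.88 to −0.51), and without DMSO replicate 1 it was −0.55 (adjusted p = 0.0168). The ratio of DLD to DLAT was 1.94 in DMSO and 1.88 in EB (log2 difference −0.04, exact permutation p = 0.771). DLD (ENSG00000091140) lies at chr7:107891162-107931730 on the plus strand.

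DLST, the lipoylated E2 of 2-oxoglutarate dehydrogenase in the citric acid cycle, had the largest standard error of the 10. It measured 141.3, 131.3, 130.6 and 67.6 TPM in DMSO and 106.6, 91.5, 54.1 and 78.5 TPM in EB. The first 3 DMSO libraries were above all EB libraries, and DMSO replicate 4 was below 3 of the 4. The log2 fold change was −0.49 (SE 0.27, 95% interval −1.09 to 0.11, limma adjusted p = 0.172). DLST was called lower in 3 of 17 alternatives. These were without DMSO replicate 4 (−0.74, adjusted p = 0.0179), with quantile normalization (−0.59, 0.0403) and with nuclear genes alone (−0.68, 0.0276). DLST (ENSG00000119689) lies at chr14:74881891-74903743 on the plus strand.

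DBT, the E2 of branched-chain 2-oxoacid dehydrogenase, which breaks down leucine, isoleucine and valine, had the lowest mean of the 10. It measured 3.92, 3.51, 3.65 and 2.84 TPM in DMSO and 3.42, 2.51, 1.94 and 1.92 TPM in EB. EB replicate 1 lay within the DMSO range. The log2 fold change was −0.39 (SE 0.16, 95% interval −0.75 to −0.03, limma adjusted p = 0.0762), and it turned to 0.15 (adjusted p = 0.337) when the length and GC trend was removed. DBT was called lower in 4 of 16 alternatives. These were without DMSO replicate 4 (−0.47, adjusted p = 0.0345), without EB replicate 1 (−0.52, 0.0298), with nuclear genes alone (−0.56, 0.0066) and with the replicate block (0.0340). Quantile normalization gave −0.08 (0.610). Its canonical transcript, 10799 bases, is the longest of the 10. DBT (ENSG00000137992) lies at chr1:100186919-100249834 on the minus strand, and 40 bases of its canonical transcript, 0.37%, overlap a noncoding gene on the other strand.

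**Figure D2:**
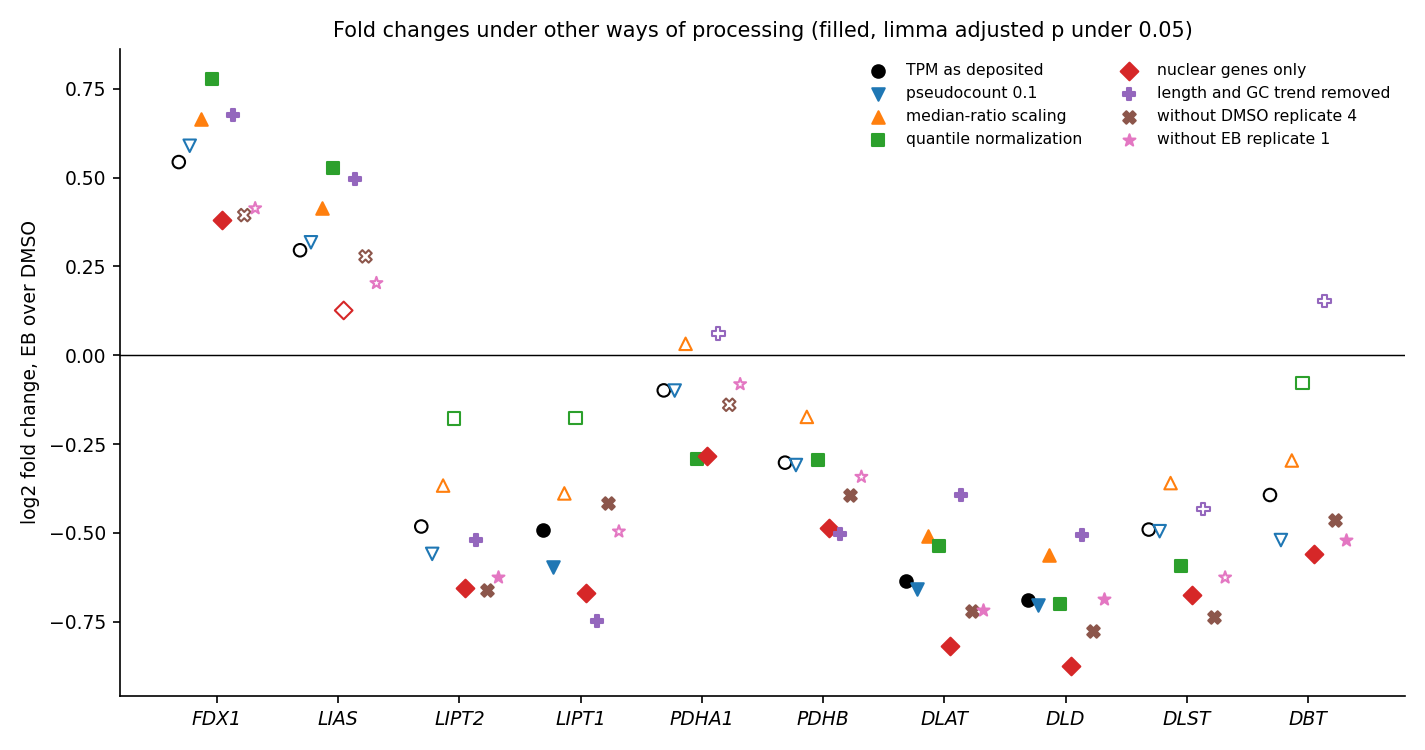
Log2 fold change of EB over DMSO (y axis) for each of the 10 genes (x axis) as deposited and under 7 other ways of processing, 1 symbol each, filled where the limma adjusted p was under 0.05. All symbols of DLAT and DLD were filled and below 0, FDX1 and LIAS stayed above 0 throughout, and DBT and PDHA1 were the genes with symbols on both sides of 0.

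For 5 of the 10 genes, FDX1, LIPT1, PDHA1, DLST and DBT, the annotation names at least 1 pseudogene. Reads of such a copy could have been mixed with theirs in the counting. Their values are uncertain to that extent. DLAT and DLD, as well as LIAS, LIPT2 and PDHB, have no pseudogene named after them there.

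Relative to DLAT and DLD, FDX1 and LIAS stood higher in EB than in DMSO. This is a description by 4 ratios chosen after the values were seen, with no test. FDX1 stood at 0.253 to 0.351 of DLAT in the DMSO libraries and at 0.549 to 0.843 in the EB libraries. LIAS stood at 0.314 to 0.390 of DLAT and then at 0.535 to 0.749. Against DLD, FDX1 went from 0.130 to 0.185 in DMSO to 0.306 to 0.510 in EB, and LIAS from 0.134 to 0.201 to 0.298 to 0.440. In all 4 every EB library was above every DMSO library. For the ratios of LIAS this follows from the single genes, since LIAS was higher and DLAT and DLD were lower without overlap. It adds nothing to those results. A ratio of TPM within a library does not change when all genes of that library are scaled by a common factor.

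**Figure D3:**
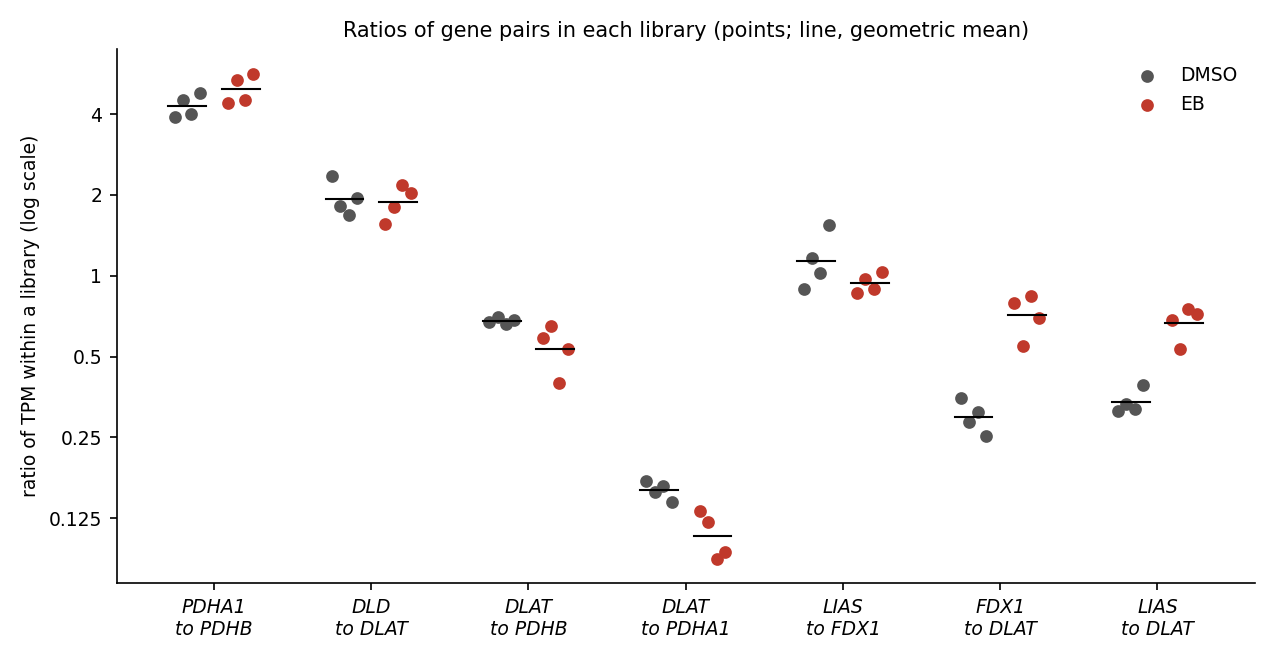
Ratio of TPM of gene pairs within each library (y axis, log scale), with DMSO in grey and EB in red, a point per library and a line at the geometric mean (n = 4 per group). The ranges did not overlap for DLAT to PDHB, DLAT to PDHA1, FDX1 to DLAT and LIAS to DLAT, and they overlapped for PDHA1 to PDHB, DLD to DLAT and LIAS to FDX1.

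Of 11 genes for partner subunits of these complexes, 10 were tested, 5 fell and 2 rose. By the same rule 25.1% of all genes tested fell and 15.2% rose. The median log2 fold change of the partner genes was −0.47. The count that fell was 3 without DMSO replicate 1, 2 or 3 or EB replicate 3 or 4, and 3 with no filter. The E1 genes of 2-oxoglutarate dehydrogenase and branched-chain dehydrogenase were among those that fell. OGDH, E1 of the 2-oxoglutarate complex, measured 107.6, 128.9, 128.5 and 88.7 TPM in DMSO and 74.6, 83.6, 67.9 and 75.5 TPM in EB, without overlap. Its log2 fold change was −0.57 (SE 0.15, limma adjusted p = 0.0141), and the call held in all 17 alternatives. The ratio of DLST to OGDH was 1.01 in DMSO and 1.07 in EB (log2 difference 0.08, exact permutation p = 0.657).

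BCKDHA, the E1 alpha subunit of the branched-chain complex, went from 88.0 ± 16.7 to 54.1 ± 12.3 TPM (SD, n = 4, log2 fold change −0.70, limma adjusted p = 0.0150). BCKDHB, its E1 beta subunit, went from 23.7 ± 3.45 to 15.5 ± 2.45 TPM (−0.58, adjusted p = 0.0138). Both calls held in all 17 alternatives. OGDHL, a paralog of OGDH, and DHTKD1, the E1 of 2-oxoadipate dehydrogenase, fell by 0.67 and 0.57 on the log2 scale (adjusted p = 0.0328 and 0.0385), with overlapping groups and with the call kept in 10 and 9 of 17 alternatives. It was lost without any 1 of 6 libraries, DMSO replicates 1, 2 or 3 and EB replicates 2, 3 or 4 for OGDHL (adjusted p up to 0.0904), and DMSO replicates 1, 2 or 3 and EB replicates 1, 3 or 4 for DHTKD1 (up to 0.103). The ratio of DBT to its E1 genes did not differ beyond the spread, with a log2 difference of 0.17 for BCKDHA (exact permutation p = 0.629) and 0.07 for BCKDHB (exact permutation p = 0.571).

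The partner genes that rose are the glycine decarboxylase GLDC and MRPS36, which is named for the mitochondrial ribosome and whose product docks E3 in the 2-oxoglutarate complex. GLDC, the P protein of the glycine cleavage system, measured 6.46, 5.71, 4.57 and 3.90 TPM in DMSO and 26.9, 34.8, 20.3 and 23.2 TPM in EB. Its lowest EB library was far above its highest DMSO library. The log2 fold change was 2.14 (SE 0.19, limma adjusted p = 9.43e-05), the only one of these partners past the study's own thresholds, and it held in all 17 alternatives. MRPS36 went from 24.9 ± 1.04 to 39.6 ± 1.99 TPM (SD, n = 4, log2 fold change 0.65, SE 0.11, adjusted p = 0.00184).

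The other partner genes did not pass the test. GCSH, the lipoylated H protein, was at 50.8 TPM in DMSO and 49.6 TPM in EB (log2 fold change 0.00, limma adjusted p = 0.996), with signs that differed between alternatives, and the annotation names several pseudogenes for it. AMT, the T protein, was at −0.37 (adjusted p = 0.348), and PDHX at −0.31 (adjusted p = 0.0992, or −0.40 and 0.0146 without DMSO replicate 4). PDHX was also called lower with quantile normalization (−0.36, 0.0109), nuclear genes alone (−0.50, 0.0034) and the length and GC trend removed (−0.30, 0.0292). The testis paralog PDHA2 was at or near 0 TPM in all libraries and was not tested. GLDC thus differed between the groups while its lipoylated partner GCSH, its partner AMT and the E3 DLD did not rise.

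**Figure D4:**
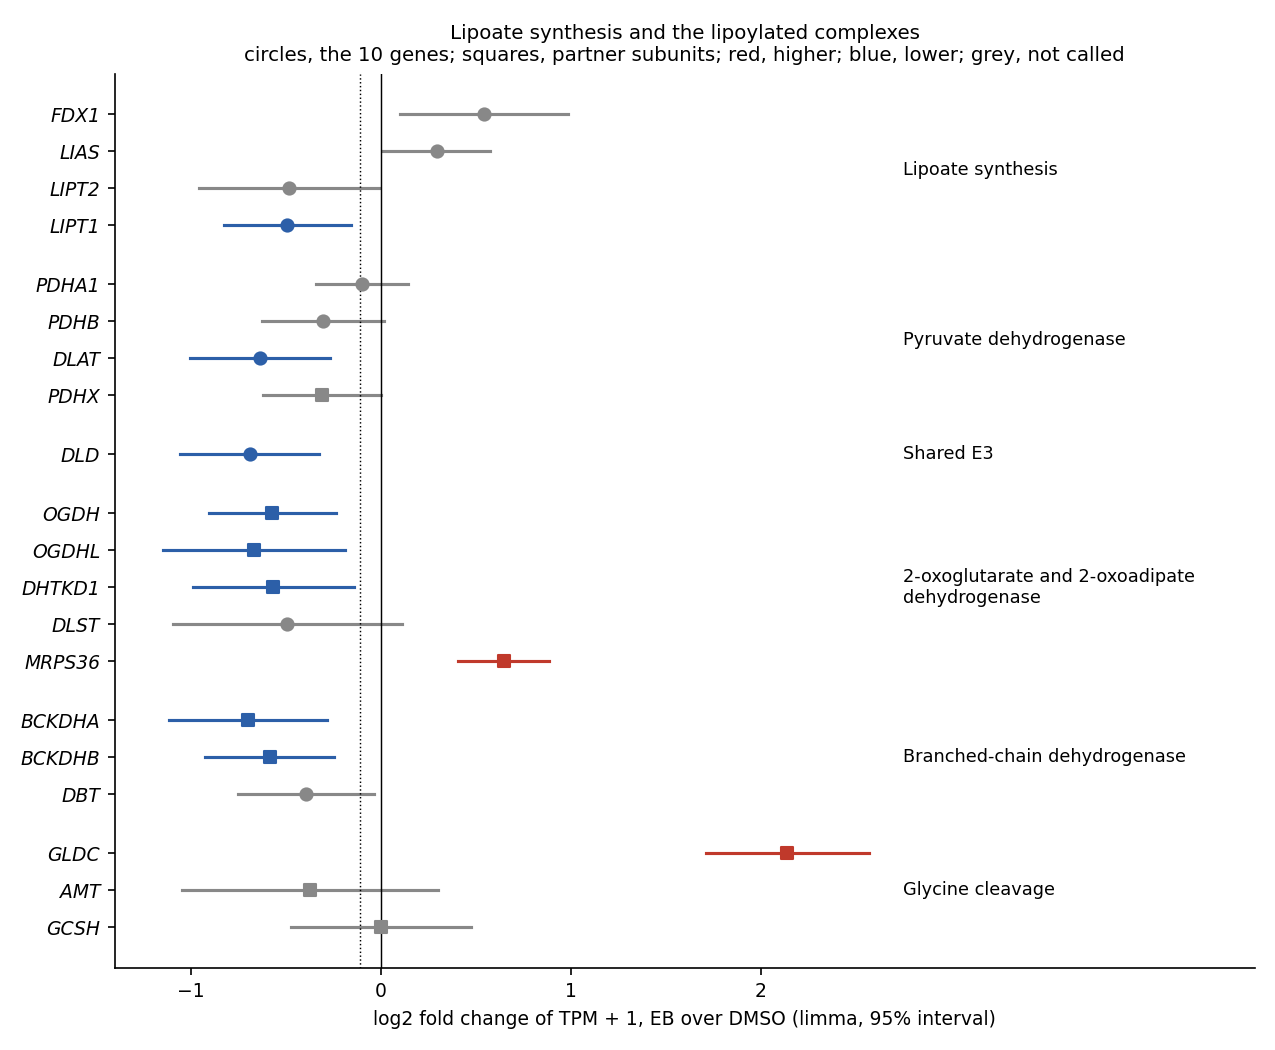
Log2 fold change of TPM + 1, EB over DMSO, with 95% intervals from limma, for the 10 genes (circles) and their partner subunits (squares), grouped by complex, in red if called higher, in blue if called lower and in grey if not called. The dotted line is the median of all genes tested, −0.11, and GLDC at 2.14 lies farthest from it.

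Genes that switch the complexes on and off by phosphorylation had lower values in EB or did not pass the test. Of 9 such genes, 7 were tested, 4 fell and 0 rose, where 25.1% of all genes tested fell and 15.2% rose. The median log2 fold change was −0.92. The count that fell was 2 with no filter, with a minimum of 5 TPM and without DMSO replicate 3. PDK2, a kinase that inactivates PDHA1, measured 13.9, 15.5, 13.5 and 13.4 TPM in DMSO and 6.96, 7.98, 6.79 and 8.28 TPM in EB, without overlap (log2 fold change −0.83, limma adjusted p = 0.000869). PDP1, the phosphatase catalytic subunit that reverses this, measured 3.35, 3.16, 2.57 and 2.96 TPM and then 0.806, 1.32, 1.07 and 0.812 TPM, again without overlap (−1.01, SE 0.13, adjusted p = 0.000564). Both held in every alternative that tested them. A kinase and the opposing phosphatase were therefore both lower at the RNA level.

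PDPR, the regulatory subunit of the phosphatase, measured 46.8, 29.1, 59.4 and 10.4 TPM in DMSO and 6.01, 7.22, 17.4 and 3.21 TPM in EB. The drop was steep but uneven, and the groups overlapped (log2 fold change −1.95, SE 0.55, limma adjusted p = 0.0188). It has a pseudogene copy on record that counting could have mixed with it, and 15 of 17 alternatives kept the call, which was lost without DMSO replicate 3 (−1.64, adjusted p = 0.0532). PDK1, another PDHA1 kinase, was at −0.92 (adjusted p = 0.0233), with overlapping groups. Its call was kept in 9 of 16 alternatives and was lost without DMSO replicate 1, 2 or 3 or EB replicate 3 or 4 (adjusted p up to 0.0670).

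PDK3 stood at −0.20 (limma adjusted p = 0.222), PDP2 at −0.96 (adjusted p = 0.106) and BCKDK, the kinase of the branched-chain complex, at −0.02 (adjusted p = 0.947). PDK4 was under 0.1 TPM in all libraries, and it and the phosphatase PPM1K were not tested. Of the other genes that screens of copper-induced death brought up, the zinc-sensing factor MTF1 was at −0.45 (adjusted p = 0.0935, or −0.65 and 0.00306 without DMSO replicate 4), and CDKN2A was listed at 0 in all 8 libraries. MTF1 was also called lower with median-ratio scaling (−0.34, 0.0433), nuclear genes alone (−0.63, 0.0059) and the replicate block (0.0341).

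Upstream of the pathway, LIAS and FDX1 both need iron-sulfur clusters. Of 19 genes of mitochondrial iron-sulfur assembly, 18 were tested, 3 rose and 5 fell, shares near those of all genes tested (15.2% higher and 25.1% lower), and their median was 0.15 on the log2 scale. The count that rose was 6 with median-ratio scaling and with the length and GC trend removed and 5 with quantile normalization, and the count that fell was 3 without DMSO replicate 1, 2 or 3 or EB replicate 1, 3 or 4. BOLA3, which helps deliver clusters to LIAS, went from 77.1 to 163.9 TPM (1.08, limma adjusted p = 0.000507) and ISCA1, a late-acting assembly factor, from 26.9 to 46.7 TPM (0.77, adjusted p = 0.000873). FDXR, the reductase that charges FDX1 with electrons, went the other way, from 50.8 to 30.1 TPM (−0.71, adjusted p = 0.0160). These 3 calls held in all 17 alternatives.

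In mitochondrial fatty acid synthesis, which makes the octanoyl chain, 1 of 9 genes tested rose and 1 fell, with a median of 0.06. The shares over all genes tested were 15.2% and 25.1%. The count that rose was 3 with median-ratio scaling and with the length and GC trend removed, 4 with quantile normalization and 2 without DMSO replicate 1. NDUFAB1, the acyl carrier protein and also a subunit of complex I, went from 88.2 to 153.4 TPM (log2 fold change 0.80, limma adjusted p = 0.00852). ACSF3, which activates malonate, was the one that fell (−0.52, adjusted p = 0.0298), and 11 of 17 alternatives kept that. The call was lost without DMSO replicate 1, 2 or 3 or EB replicate 3 or 4 (adjusted p up to 0.0862).

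Of 7 genes listed for pyruvate entry, thiamine and removal of lipoyl groups, 6 were tested, 5 rose and 0 fell, with a median of 0.64, where 15.2% of all genes tested rose. The count that rose was 3 at a minimum of 5 TPM, and 4 to 6 with a library left out. The paired subunits of the mitochondrial pyruvate carrier went from 22.4 to 33.3 TPM for MPC1 (log2 fold change 0.55, limma adjusted p = 0.00502) and from 43.7 to 70.8 TPM for MPC2 (0.69, adjusted p = 0.00346). Both held in all 17 alternatives.

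Among 15 other citric acid cycle genes, 2 rose and 1 fell, with a median of 0.02, where 15.2% of all genes tested rose and 25.1% fell. The balance moved with the scaling, to 1 higher and 5 lower with quantile normalization and with nuclear genes alone, 4 higher and 1 lower with median-ratio scaling, and 1 higher and 2 lower with the length and GC trend removed. The count that fell was 4 without DMSO replicate 4, and the count that rose was 1 without DMSO replicate 2 or 3 or any 1 EB library. SUCLG1, the alpha subunit of succinyl-CoA synthetase, rose from 101.4 to 154.3 TPM (log2 fold change 0.60, limma adjusted p = 0.00363), and SUCLG2, its GTP-specific beta subunit, fell from 52.0 to 26.2 TPM (−0.97, adjusted p = 0.000725). FH, fumarase, was at 0.33 (adjusted p = 0.0392), a call that 8 of 17 alternatives kept and that was lost without DMSO replicate 2 or 3 or any 1 EB library (adjusted p up to 0.106).

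Genes of mitochondrial import and the outer membrane, listed to compare with other nuclear-encoded mitochondrial genes, had 7 of 15 higher and 0 lower, with a median of 0.49, where 15.2% of all genes tested were higher. The count was 3 without EB replicate 3, and 4 without DMSO replicate 3 or EB replicate 1. Quantile normalization and nuclear genes alone gave 1 and 2 lower calls in this list. Among its called genes the largest changes were those of VDAC2 at 0.74, TOMM40 at 0.72, TIMM44 at 0.71 and TIMM17A at 0.70 on the log2 scale, and 10 of 17 alternatives kept TOMM40, which was lost without DMSO replicate 1 or 3 or EB replicate 1, 2 or 3 (adjusted p up to 0.1005). Of 13 regulators of mitochondrial biogenesis, 12 were tested, 1 rose, TFB2M (0.38, limma adjusted p = 0.0256), and 1 fell, PPARGC1B (−0.74, adjusted p = 0.0274), with a median of −0.07. By the same rule 15.2% of all genes tested rose and 25.1% fell. The counts were 0 higher and 5 lower with nuclear genes alone, 4 higher and 0 lower with the length and GC trend removed, and 3 higher and 1 lower with median-ratio scaling and with quantile normalization. TFB2M was lost without DMSO replicate 2 or 3 or EB replicate 1 or 3 (adjusted p up to 0.0796), and PPARGC1B without DMSO replicate 1, 2 or 3 or EB replicate 1, 3 or 4 (up to 0.0772).

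**Figure D5:**
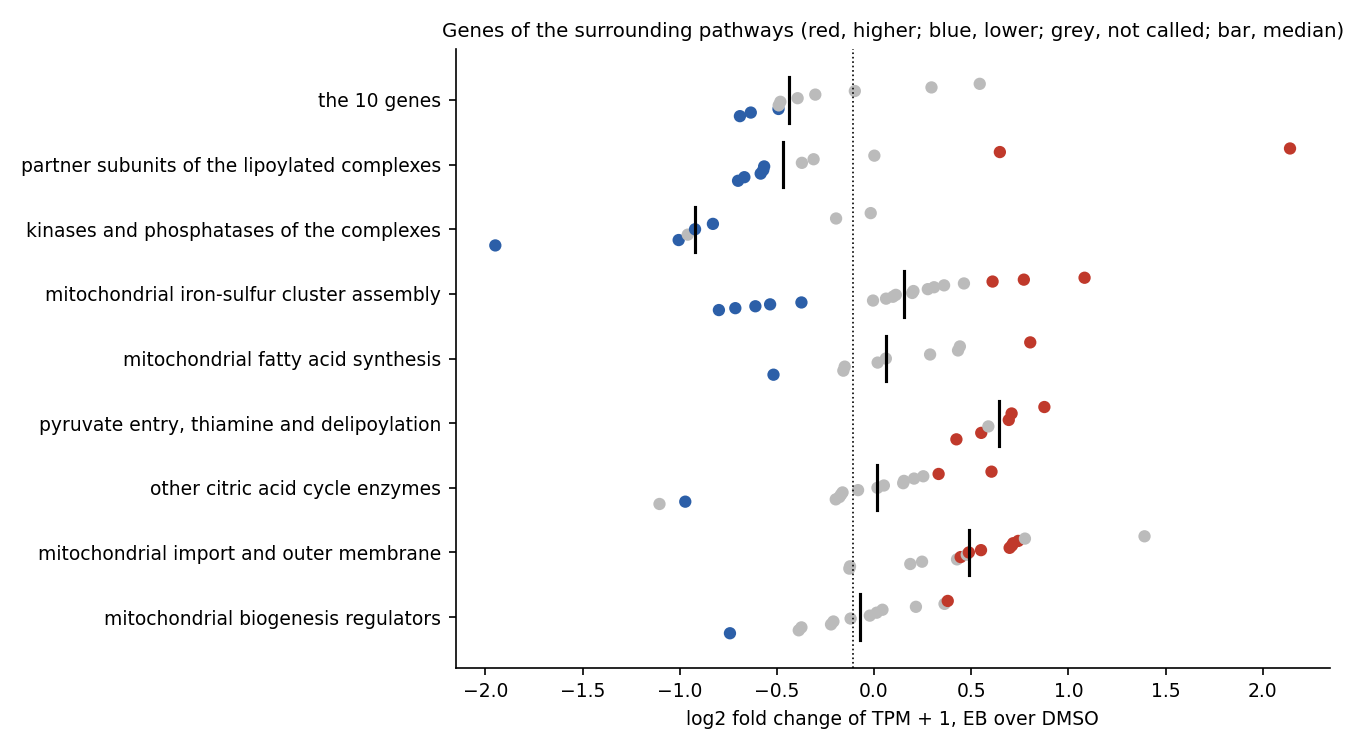
Log2 fold change of TPM + 1, EB over DMSO (x axis), of each gene tested in the 10 genes and in 8 lists of surrounding pathways, in red if called higher, blue if called lower and grey if not called. The bar is the list's median, −0.44 for the 10 genes and 0.64 for pyruvate entry, thiamine and delipoylation, and the dotted line is the median of all genes tested, −0.11.

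The libraries matched their label as a duct line in part. Of 5 duct cell markers, 4 were at 1 TPM or more in all libraries and KRT7 was below 1, and their summed level was 1129 to 1594 TPM in DMSO and 3261 to 3652 TPM in EB. The markers did not move one way, since KRT8, KRT18 and KRT19 rose and SOX9 fell from 148.5 to 57.1 TPM (log2 fold change −1.38, limma adjusted p = 0.000420, without overlap). Of 14 markers of other cell types, 13 were under 1 TPM in all libraries and 9 were at 0 in all. The exception was ACTA2, and the sum of the 14 was 25.6 to 44.5 TPM in DMSO and 18.3 to 25.3 TPM in EB. Between 11353 and 11894 genes were at 1 TPM or more in each library, and libraries of 1 group correlated at 0.970 or more on the log2 scale, those of different groups at 0.956 or less.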

How the data were processed

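The authors deposited TPM per gene and library for PANC-1 cells given DMSO or EB, 4 libraries each, and these were used as deposited. Trimming, mapping and normalization were done in CLC Genomics Workbench, per the methods, which also name Trimmomatic, FastQC, Bowtie2, SAMtools, HISAT2 and StringTie as further tools, so which of them made the TPM is not settled. Both a mouse and a human build are named, the identifiers are human, and the annotation and strand setting are not given in the sources used here. Columns headed C were read as DMSO, and those headed H, a letter not explained, as EB, the only other group. The methods name 4 biological replicates and also triplicates. All 8 columns were used. TPM hold no read counts, so depth and counting error are unknown. Symbols, positions and transcripts come from GENCODE release 44 on hg38, in which 20148 of 20263 identifiers matched. No protein sequences were printed.

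Genes at 1 TPM or more in at least 4 libraries (11725) were tested by limma 3.58.1 in R 4.3.3 on log2(TPM + 1), two-sided, without a block (prior degrees of freedom 3.88), with Benjamini-Hochberg adjustment and a threshold of 0.05. A fold change on this scale understates that of genes at low TPM. Ratios and the mitochondrially encoded share were compared by exact two-sided permutation tests over the 70 assignments of libraries, with adjustment over 10 ratios. Other ways of processing were no filter, a minimum of 5 TPM, a pseudocount of 0.1, median-ratio scaling, quantile normalization, nuclear genes only, subtraction of each library's dependence on transcript length and GC content, an intensity trend, a replicate block and each library left out, which is 17 in all, or 16 for genes that the higher minimum removed. Trends were natural splines with 4 degrees of freedom, fitted per library over 11685 genes. Steps were tested on simulated data. Python 3.11.15, numpy 2.4.6, pandas 2.3.3 and matplotlib 3.10.9 were used.

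The members, lists and tests were chosen with earlier results of these data known. The genes named are the 10, every gene of the lists of partner subunits, kinases and phosphatases and copper-death screens, and up to 4 called genes of each other list, taken by absolute log2 fold change, beside cell markers and genes that overlap a member. Some genes that this rule would name are not reported here.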

Additional observations from a re-analysis of the deposited data

Results flagged for a closer look

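A single library stood apart from the other 3 of its group, by the gap to its nearest neighbour as a share of the group's range (Dixon's test, critical value 0.829), in 2 of 42 groups of 4 values examined. Chance flags about 1 group in 20. LIAS was at 15.8 TPM in EB replicate 1, with the nearest EB library at 12.2 TPM and a gap of 0.899 of the range. Without that library the log2 fold change of LIAS was 0.20 (limma adjusted p = 0.236). DLST was at 67.6 TPM in DMSO replicate 4, with the nearest DMSO library at 130.6 TPM and a gap of 0.855 of the range. This is also the library with the highest mitochondrially encoded share, and its part in the DLST value was not tested beyond leaving it out, which gave a log2 fold change of −0.74 (limma adjusted p = 0.0179).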

How the results depend on the processing

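Over the genes named, 620 of 741 alternative values kept direction and side of the threshold, 64 lost and 39 gained a call, and 18 changed sign. Among the 10 genes the count called higher, 0, was 1 with no filter, with nuclear genes only and with the replicate block, 2 with median-ratio scaling, quantile normalization and the length and GC trend removed, and 0 to 1 with a library left out (1 without DMSO replicate 1, FDX1). The count called lower, 3, was 5 with quantile normalization and with the trend removed, 8 with nuclear genes only, 6 with the replicate block, and 2 to 7 with a library left out (7 without DMSO replicate 4). With median-ratio scaling LIPT1 lost its call (−0.39, limma adjusted p = 0.107), and at a minimum of 5 TPM it was not tested. Only DLAT and DLD were called lower in these settings. Over all genes tested, 3146 of 11725 were higher with median-ratio scaling, 2782 of 11725 with quantile normalization and 2850 of 11685 with the trend removed. Those higher were 1903 of 16142 with no filter, 1440 of 11712 with nuclear genes only and 2231 of 11725 with the replicate block. Those lower were 3001 with median-ratio scaling, 2211 of 9490 at a minimum of 5 TPM and 2764 with quantile normalization. With the trend removed they were 2548, with nuclear genes only 4840 and with the replicate block 3525. With a library left out, 1270 to 1826 were higher and 2073 to 4333 lower. The cause of these changes was not tested.

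Signs turned for DBT (0.15), MTF1 (0.046), PDHA1 (0.061) and GCSH (−0.19) with the trend removed, for PDHA1 (0.032) and BCKDK (0.11) with median-ratio scaling, for GCSH (−0.011) and PDK3 (0.011) with quantile normalization, and for GCSH (−0.18) with nuclear genes only. None of these genes was called in the values as deposited or in the values that turned. With a library left out, log2 fold changes ran from −0.15 to 0.076 for BCKDK and −0.13 to 0.16 for GCSH. Among ratios, DLAT to PDHB was 0.11 and DLST to OGDH −0.14 with the trend removed. With a library left out, log2 differences ran from −0.12 to 0.050 for DLD to DLAT, −0.060 to 0.22 for DLST to OGDH, −0.066 to 0.41 for DBT to BCKDHA, −0.0027 to 0.18 for DBT to BCKDHB and −0.24 to 0.26 for LIPT1 to LIPT2.

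The columns of both groups are numbered 1 to 4. Deviations from the group means correlated at 0.183, 0.0463, −0.0879 and 0.284 between columns of the same number, and replicates 1 and 4 but not 2 and 3 matched their own number best, so the numbers were not taken as pairs. With the replicate block, 2231 genes were higher and 3525 lower, and in the 10 genes FDX1 was called higher and LIPT2, PDHB and DBT lower beside the 3 as deposited. With the block, ratios were compared by sign flips over 4 pairs, for which the smallest p is 0.125.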
